A study of Homo sapiens with 40 samples.

Results

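Stanniocalcin 2 (STC2), a secreted glycoprotein hormone, was examined beside 9 other genes: its paralog STC1 and the integrated stress response genes ATF4, ATF3, DDIT3, TRIB3, ASNS, CHAC1, SESN2 and PSAT1. These are 10 of the 56568 gene names in the deposited tables, and they were selected on the values of STC2 itself, which was seen to rise with PCB 126. The values of STC2 under PCB 126 are therefore given as a description, without a test. The question was whether the rise of STC2 went with other targets of ATF4, across all 8 treatment groups.

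In the integrated stress response, kinases that sense amino acid shortage, unfolded protein, haem loss or viral RNA phosphorylate the initiation factor eIF2. General translation slows while translation of the transcription factor ATF4 increases, and ATF4 then raises genes of amino acid synthesis, transport and stress adaptation. STC2 is known as one of the genes that respond to this pathway. PCB 126, a polychlorinated biphenyl of the dioxin-like kind, activates the aryl hydrocarbon receptor (AhR).

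HepaRG is a human hepatic progenitor line that, once differentiated, holds hepatocyte-like colonies among cells resembling biliary epithelium. All 40 libraries came from this line, 5 in each of 8 groups, and the cells were exposed for 6 days, from day 8 to day 14, in the same medium with serum and DMSO. One group received the solvent alone. PCB 126 was given at a dose of 100 pM, 10 nM or 1 µM. Glyphosate was given at 10 µg/L, at 1 mg/L or at 0.1 g/L, and Roundup, a formulated herbicide that contains glyphosate, at 10 µg/L. Nothing in the labels says that the libraries of a group came from separate cultures, so the p-values measure the spread between these libraries, which may be technical.

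Values are fragments per kilobase of transcript, scaled to the mapped reads (FPKM), summed over the transcripts of a gene, and differences are of log2(FPKM + 1), so that changes of low genes come out too small. The tables hold no counts, so the number of reads behind each value is unknown. The paper gives a wide range of reads per sample, and read depth was not used in the main tests. The summed FPKM of a library ranged from 255292 to 513059. In 9 libraries over 30% of read pairs aligned to more than 1 place. They are control replicate 5, PCB 126 10 nM replicates 3 and 5, PCB 126 1 µM replicates 1 and 5, glyphosate 10 µg/L replicate 5, glyphosate 0.1 g/L replicate 2 and Roundup replicates 4 and 5. Their summed FPKM was 255292 to 332974, against 311488 to 513059 in the others. The hepatocyte marker albumin (ALB) was at 9144 to 12989 FPKM in the control libraries and the biliary marker KRT19 at 189 to 391 FPKM, while EPCAM was at most 0.0401 FPKM.

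Short stretches upstream of the RefSeq start sites are shown for STC2 and for 2 targets of ATF4, since the comparison is between a gene that rose and genes that did not pass the test. Capitals in STC2 mark GCGTG, the core of the AhR element, on either strand. Capitals in ASNS and CHAC1 mark TGATGNAA, the core of the C/EBP-ATF element, on either strand. Each is 30 bases of GRCh38.p14, on the strand of the gene: STC2 at chr5:173328626-173328655 on the minus strand, ASNS at chr7:97872458-97872487 on the minus strand and CHAC1 at chr15:40953251-40953280 on the plus strand.
STC2: catacaCACGCACGCaaacGCGTGgccgcc
ASNS: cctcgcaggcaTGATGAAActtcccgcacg
CHAC1: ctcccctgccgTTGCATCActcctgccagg

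RefSeq promoters, 250 bases before to 50 after the start site, were matched for 9 of the 10 genes, STC1 being the other. The STC2 window held GCGTG 3 times and no TGATGNAA. GCGTG was also in the ASNS and CHAC1 windows, once in each and not marked above, and 6 times in that of TRIB3, which did not pass the test. TGATGNAA was in the windows of 3 of the 9 genes (ATF3, ASNS and CHAC1) and in 3.67% of all 27305 promoters. GCGTG was in 7 of the 9 and in 36.3% of all promoters. ACGTG, the core of the hypoxia element, was in 1 of the 9 (ATF4) and in 21.6% of all promoters. These matches describe the letters in the window only. The ATF3 transcripts that start near its RefSeq start site carried 0.04% and 0% of its FPKM. Those with 51.1% and 40.4% start downstream of the window. The longest STC2 transcript in the deposited tables starts 1089 bases upstream of the RefSeq start site. It carried 75.53% of the STC2 FPKM, so the STC2 window lies inside the span of the main transcript measured. The TRIB3 transcript with 94.12% of its FPKM also starts upstream of the TRIB3 window.

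STC2 was low in control cells and climbed with each step of PCB 126. In the 5 control libraries it was at 0.852, 1.02, 0.989, 1.08 and 0.175 FPKM. At 100 pM the values were 2.37, 1.62, 0.853, 1.76 and 4.31 FPKM. At 10 nM they were 12.3, 8.88, 2.81, 5.49 and 12.7 FPKM, and at 1 µM 9.92, 23.6, 22.2, 18.96 and 12.1 FPKM. The 10 nM and 1 µM libraries lay above every control library, while 1 of the 5 libraries at 100 pM lay within the control range. The means were 0.824 ± 0.372, 2.18 ± 1.31, 8.44 ± 4.30 and 17.4 ± 6.08 FPKM (SD, n = 5 each), or 2.65, 10.25 and 21.1 times the control mean. On the log2 scale the differences from control were 0.74, 2.25 and 3.29, and 1.14 per dose step.

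The order of the group medians of STC2 was 1 µM (18.96 FPKM), 10 nM (8.88), 100 pM (1.76), control (0.989), glyphosate 0.1 g/L (0.701), glyphosate 1 mg/L (0.605), Roundup (0.535) and glyphosate 10 µg/L (0.521). Every neighbouring pair in this order overlapped. The lowest STC2 value at 1 µM came from replicate 1 and the lowest at 10 nM from replicate 3, both among the libraries with over 30% of multiply aligned pairs, as was the lowest control, replicate 5. The highest value at 10 nM, replicate 5, came from such a library too. Without those 9 libraries the difference of STC2 at 1 µM was 3.50.

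In the herbicide groups STC2 stayed between 0.234 and 1.61 FPKM in all 20 libraries. Its differences from control were -0.24 at glyphosate 10 µg/L, -0.08 at 1 mg/L, 0.04 at 0.1 g/L and -0.28 with Roundup. The 2-sided exact permutation test over the 252 splits gave p = 0.19, 0.69, 0.833 and 0.151 (0.381, 0.833, 0.833 and 0.381 after adjustment over the 4 tests). The smallest p this design allows is 0.00794. STC2 did not pass the filter on low variance in the glyphosate table, so limma tested it there only without that filter. The 4 95% intervals had the same width, and the one with Roundup lay lowest, from -0.61 to 0.05.

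STC1, the paralog of STC2 and also a secreted glycoprotein, moved the other way. The control libraries were at 5.31, 5.54, 5.75, 7.77 and 5.17 FPKM. Under PCB 126 the values were 3.42, 4.53, 5.72, 8.05 and 3.09 FPKM at 100 pM, and 2.22, 1.96, 1.32, 5.11 and 1.89 FPKM at 10 nM. At 1 µM they were 0.333, 2.09, 1.70, 2.33 and 1.49 FPKM. The 10 nM and 1 µM libraries lay below every control library, although 10 nM replicate 4, at 5.11 FPKM, was just under the lowest control. The median difference over all genes tested was itself below 0, at -0.21 at 10 nM and -0.26 at 1 µM. The share of all genes that lay fully below control is not given here.

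STC1 fell by 1.47 on the log2 scale at 1 µM (SE 0.29, adjusted p = 0.00481, limma with Benjamini-Hochberg adjustment over all genes tested), to 0.269 of the control mean. At this dose 1.87% of the 9755 genes tested passed the threshold of an adjusted p of 0.05. At 10 nM the difference was -1.05 (SE 0.29), with an adjusted p of 0.217, where 0.205% of genes passed. Without 10 nM replicate 4, STC1 passed the test at that dose. The trend over the dose steps was -0.52 per step (SE 0.09, adjusted p = 0.000729), and 3.78% of genes passed for the trend. At 100 pM no gene passed the test (0%), and 116 genes had an unadjusted p under 0.05.

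Within a library, STC2 exceeded STC1 in 0 of 5 controls, 1 of 5 libraries at 100 pM, 5 of 5 at 10 nM and 5 of 5 at 1 µM. The ratio of their FPKM had a median of 0.16 in controls, 0.358 at 100 pM, 4.54 at 10 nM and 11.3 at 1 µM. In the 20 herbicide libraries STC2 stayed below STC1, which was at 4.01 to 9.50 FPKM.

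ATF4, the transcription factor at the centre of the pathway, did not pass the test in any comparison. Its FPKM was 60.9, 39.5, 42.3, 31.9 and 28.3 in control and 35.4, 34.4, 39.3, 56.1 and 30.1 at 1 µM, with full overlap. The difference at 1 µM was -0.04 (95% interval -0.55 to 0.47). ATF4 is regulated mainly in translation, which its RNA level does not measure.

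ATF3, a stress-induced bZIP factor downstream of ATF4, was at 11.2, 6.62, 6.32, 6.57 and 3.90 FPKM in control. At 10 nM it was at 12.4, 9.91, 4.27, 9.29 and 12.8 FPKM, and at 1 µM at 5.36, 17.3, 15.9, 15.1 and 11.1 FPKM. At 1 µM 3 of the 5 libraries lay above every control library. The mean at 1 µM was 13.0 ± 4.83 FPKM (SD, n = 5), against 6.92 ± 2.65 in control. The difference of 0.79 (SE 0.30) had an unadjusted p of 0.0157 and an adjusted p of 0.232 in limma, and so did not pass. It passed when libraries were scaled to their 75th percentile (0.94, adjusted p = 0.0055) and without the 9 libraries named above (1.01, adjusted p = 0.003). Against the 4 herbicide groups ATF3 was higher at 1 µM by 0.74 (SE 0.23, adjusted p = 0.0345 in limma). There the call was lost without 1 µM replicate 2, 3, 4 or 5 in turn, with differences of 0.62, 0.65, 0.67 and 0.77 (adjusted p = 0.0977, 0.0888, 0.0842 and 0.0686). It was also lost when every gene above 0 was tested (0.74, adjusted p = 0.0801) and with the most abundant transcript (0.95, adjusted p = 0.105).

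DDIT3 (CHOP), a pro-apoptotic bZIP factor, was at 1.43 to 7.79 FPKM in control and 4.603 to 9.45 FPKM at 1 µM. Its difference of 0.63 (SE 0.38, adjusted p = 0.471 in limma) was within the spread. TRIB3, a pseudokinase that inhibits ATF4 signalling, differed by -0.09, with an interval of -0.59 to 0.40. ASNS, asparagine synthetase and a classical ATF4 target, differed by -0.09, with an interval of -0.70 to 0.53. SESN2, a sensor and inhibitor of the growth kinase mTORC1, differed by -0.11, with an interval of -0.65 to 0.43. PSAT1, an enzyme of serine synthesis, was at 11.6 to 25.6 FPKM in control and 9.10 to 20.6 at 1 µM, a difference of -0.42 with an interval of -0.99 to 0.14. CHAC1, which degrades glutathione, was below 2.70 FPKM in every library and did not pass the filter on low variance. Without that filter it differed by -0.12 at 1 µM (interval -0.52 to 0.28).

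**Figure D1:**
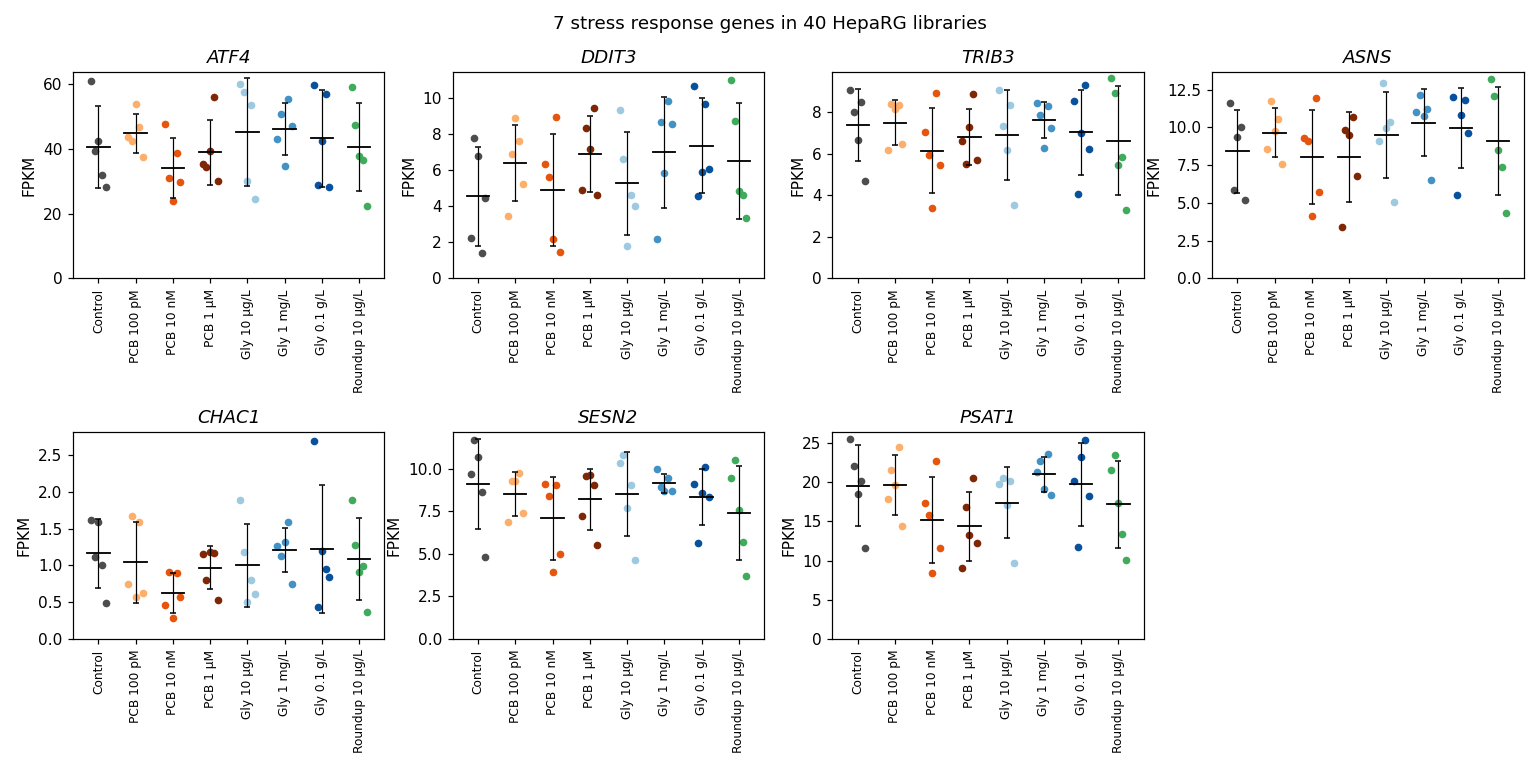
FPKM of ATF4, DDIT3, TRIB3, ASNS, CHAC1, SESN2 and PSAT1 (y axes) in the 8 groups (x axis), 5 libraries each, with mean and SD. In each panel the PCB 126 libraries overlap the control libraries; CHAC1 did not exceed 2.70 FPKM.

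Of the 9 genes other than STC2, 8 passed the variance filter. Against control, 0 passed the test at 100 pM, 0 at 10 nM and 1 at 1 µM (STC1, lower). Their median difference at 1 µM was -0.09, where the median over all genes tested was -0.26. Among the herbicide groups 0 of 8 passed in each of the 4 comparisons, where 0% of the 9533 genes passed in limma. There 95, 125, 84 and 165 genes had an unadjusted p under 0.05 at glyphosate 10 µg/L, 1 mg/L, 0.1 g/L and with Roundup. Of the 8 genes tested none had an unadjusted p under 0.05 in those comparisons.

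PCB 126 at 1 µM was also set against the 4 herbicide groups, which share medium and time with it. This comparison uses the same 1 µM libraries as the comparison with control. STC2 was 3.43 higher. STC1 fell by 1.49 (SE 0.20, adjusted p = 5.49e-07, limma), and with ATF3 it made 2 of the 8 that passed, where 9.37% of the 9732 genes passed. The other 6 did not pass, with differences from -0.37 (PSAT1) to 0.13 (DDIT3). PSAT1 passed there with 75th-percentile scaling (-0.32, adjusted p = 0.00559).

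**Figure D2:**
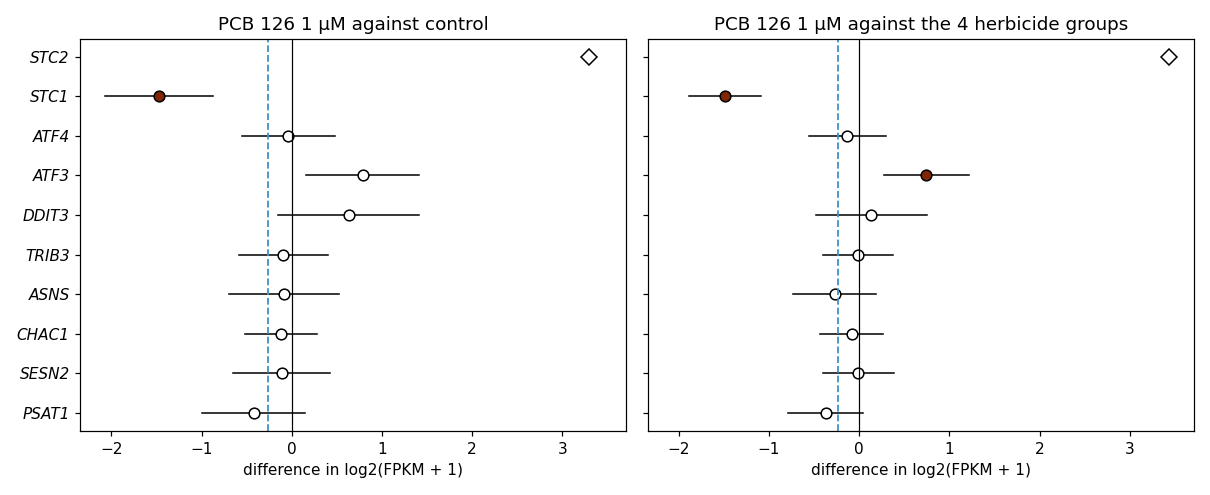
Differences in log2(FPKM + 1) (x axis) of the 10 genes at 1 µM PCB 126 against control (left) and against the 4 herbicide groups (right), with 95% intervals from limma. Filled points passed the test, the diamond is STC2 (not tested), CHAC1 comes from the fit without the variance filter, and the dashed line is the median of all genes (-0.26 and -0.23); STC1 lies left of 0 in both panels.

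A wider list of 57 genes of the pathway was followed, of which 48 were tested in the PCB table. At 1 µM 1 of the 48 passed (2.08%), CTH (higher), against 1.87% of all genes. Against the herbicide groups 3 of 49 passed (6.12%), CTH, PPP1R15A and GDF15, all higher, against 9.37% of all genes. For the trend 2 of 48 passed (4.17%), CTH and GDF15, against 3.78% of all genes. Without further scaling these shares were near or below those of all genes and are no result about the list. The counts depended on the scaling, and those over all genes rose too. With 75th-percentile scaling 43 genes of the list were tested, of which 5 were higher and 0 lower at 1 µM, where 6.68% of all genes passed. Against the herbicide groups 8 were higher and 9 lower, where 32.3% of all genes passed. With quantile normalization 11 of 48 were higher and 3 lower at 1 µM (11.1% of all genes), and 13 of 49 were higher and 7 lower against the herbicide groups (28.1% of all genes). With either scaling the share of the list that passed was above that of all genes in both comparisons. No set test was run, so this is a description. The median difference of the list at 1 µM was -0.18 beside -0.26 over all genes, -0.0035 beside -0.12 with 75th-percentile scaling, and 0.02 beside -0.01 with quantile normalization.

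CTH, cystathionine gamma-lyase, makes cysteine from cystathionine. It was at 4.39, 3.68, 2.99, 3.09 and 2.34 FPKM in control and 4.95, 15.4, 14.1, 14.5 and 9.11 FPKM at 1 µM. Its difference at 1 µM was 1.48 (SE 0.30, adjusted p = 0.00665, limma), 3.52 times the control mean. PPP1R15A (GADD34), which returns eIF2 to its unphosphorylated state, was at 6.29 to 16.2 FPKM in control and 12.3 to 22.7 FPKM at 1 µM. It was 0.82 higher than in the herbicide groups (SE 0.23, adjusted p = 0.016, limma), and 0.79 higher than control with an adjusted p of 0.19. GDF15, a secreted stress cytokine, was at 34.9 to 141 FPKM in control and 126 to 222 FPKM at 1 µM. It was 1.19 higher than in the herbicide groups (SE 0.33, adjusted p = 0.017, limma) and 1.19 higher than control with an adjusted p of 0.0677.

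The other lists of the pathway had no member past the test at 1 µM against control, where 1.87% of all genes passed. These were the kinases, eIF2 subunits and phosphatases (0 of 11), the bZIP partners (0 of 5), serine and one-carbon enzymes (0 of 4), amino acid transporters (0 of 6), aminoacyl-tRNA synthetases (0 of 12) and stress outputs (0 of 4). Of the ER unfolded protein response, 0 of 12 passed. In lists this short, counts of 0 are near the share of all genes and are no result about the lists. At an unadjusted p under 0.05 there were 6 of the 48 genes of the wider list (12.5%), beside 13.6% of all genes, and 0 of the 12 synthetases and 0 of the 12 ER genes. At 10 nM there were also 6 of 48 (12.5%), beside 4.85% of all genes (limma). There CTH, GDF15 and SLC7A11 were higher and PSPH, SLC1A4 and JDP2 lower, and none passed after adjustment.

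**Figure D3:**
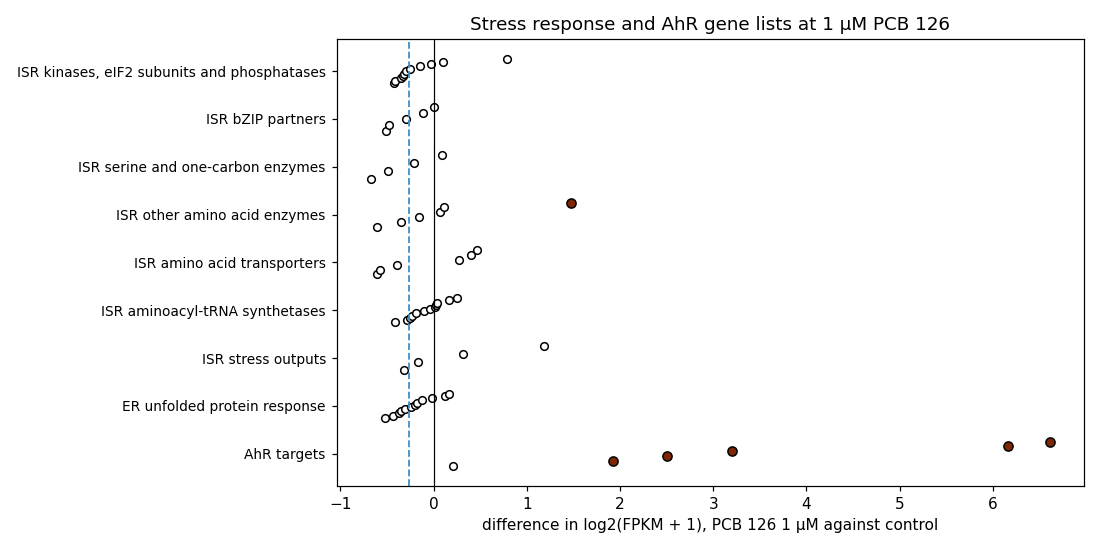
Differences in log2(FPKM + 1) at 1 µM PCB 126 against control (x axis) for each tested gene of 9 lists (rows); filled points passed the limma test and the dashed line is the median of all genes, -0.26. The filled point among amino acid enzymes is CTH (1.48), and the AhR list holds 5 filled points of 6.

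The AhR target list checked the exposure. CYP1A1, the classical AhR target, was at 0 to 7.69 FPKM in control and at 85.2 to 389 FPKM at 1 µM, and was 6.61 higher there (SE 0.91, adjusted p = 7.44e-05, limma). It was at most 6.48 FPKM in the herbicide libraries. At 100 pM both genes were highest in replicate 5, with 4.31 FPKM of STC2 and 319 FPKM of CYP1A1. There STC2 was lowest in replicate 3 (0.853), where CYP1A1 was at 3.21 FPKM, and CYP1A1 was lowest in replicate 4 at 1.09. Of 12 hypoxia targets 9 were tested, and at 1 µM SLC2A1, a glucose transporter, was 2.11 higher (adjusted p = 0.000618, limma) while CA9, a carbonic anhydrase, fell by 2.15 (adjusted p = 0.00242). The other 7 did not pass, where 1.87% of all genes passed. An unadjusted p under 0.05 (limma) was found for 6 of the 9, in both directions, beside 13.6% of all genes.

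The genes most like STC2 were sought among 9260 genes that passed the variance filter in both tables, by Pearson's r of log2(FPKM + 1) over the 40 libraries. They were TIPARP (0.98), SLC37A2 (0.97), CYB561A3 (0.96), SCG5 (0.96) and PLEKHF1 (0.93). The points share libraries and the dose series, and the median over all these genes was -0.11. TIPARP, an AhR target, went from 4.58 FPKM in control to 53.3 at 1 µM. CYP1A1 had an r of 0.92 and CTH 0.86. Among the genes of the set ATF3 had 0.63, DDIT3 0.01, SESN2 -0.02, TRIB3 -0.04, ASNS -0.10, ATF4 -0.15, PSAT1 -0.25 and STC1 -0.79. Over the 20 herbicide libraries, which did not serve to choose STC2, the values lay closer together. There the 5 genes had 0.30 (PLEKHF1) to 0.63 (SCG5), with TIPARP at 0.42, and CYP1A1 had 0.74 and CTH 0.44. Genes of the set had 0.01 (ATF4) to 0.44 (PSAT1), with ASNS at 0.43, and STC2 itself was low in these libraries.

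To leave the dose out, each library was taken as its deviation from its group mean and STC2 was correlated with each of the other 9 genes over 40 libraries. ATF3 had r = 0.54 (permutation p = 0.00052, adjusted over 9 genes 0.00468; Spearman's rho 0.45, permutation p = 0.00732). The other 8 did not pass, with r from -0.03 (DDIT3) to 0.38 (ASNS). The median r of STC2 with all 9731 other genes was 0.31, so values near it are shared by most genes. Without the 2 libraries farthest from the median of STC2 the r of ATF3 was 0.52. With 75th-percentile scaling it was 0.39 (adjusted permutation p = 0.0949), and without the 9 libraries with over 30% of multiply aligned pairs it was -0.04 (adjusted permutation p = 0.79, n = 31). The median r over all genes fell as well, to 0.03 with that scaling and to -0.23 without those libraries. The 95th percentile over all genes was 0.48 at first, 0.29 with that scaling and 0.13 without those libraries. The relation of STC2 and ATF3 within groups therefore did not hold without those libraries, where the correlations of STC2 with genes at large were lower too.

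Some markers of the cell types differed at 1 µM, where 1.87% of all genes passed and 13.6% had an unadjusted p under 0.05 (limma). Of 6 hepatocyte markers 2 passed and both were lower, TTR by -1.62 (adjusted p = 0.00797, limma) and FGB by -1.37 (adjusted p = 0.0259). The summed FPKM of the hepatocyte list was 14400 to 21000 in control and 5650 to 14200 at 1 µM. Of 3 biliary markers tested 0 passed, but all 3 were below control with an unadjusted p under 0.05. Against the herbicide groups 2 of the 3 passed and for the trend 1, all lower. The summed FPKM of the biliary list was 224 to 452 in control and 122 to 215 at 1 µM. Of 5 mesenchymal markers tested 4 had an unadjusted p under 0.05, in both directions, and 1 passed. It was the collagen gene COL3A1, which fell by 3.07 (adjusted p = 2.29e-05, limma). The others were at 1.03 (LUM), 1.02 (DCN), 0.64 (COL1A1) and -0.92 (ACTA2), and the summed FPKM was 38.1 to 85.2 in control and 48.5 to 187 at 1 µM. In such bulk samples fewer cells of a type and less RNA per cell cannot be told apart, and the part of cell composition in the results on STC2 and STC1 was not tested.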

How the data were processed

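RNA of differentiated HepaRG cells was depleted of rRNA and made into directional libraries. The authors aligned reads to GRCh38 with HISAT2 and estimated transcript levels with StringTie. The deposited values are FPKM per transcript (234960 transcripts), in a PCB and a glyphosate table that share the 5 control libraries. Columns that held the deposited values below 0 were handled as a score, and these 4 and 6 values were set to 0. FPKM were not scaled further between libraries.

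Transcripts were summed per gene name and log2(FPKM + 1) was tested with limma 3.58.1 (R 4.3.3) on genes with a variance of FPKM over 1, with Benjamini-Hochberg adjustment and a threshold of 0.05. The PCB and glyphosate groups were fitted per table, and PCB 126 at 1 µM against the herbicide groups over all 40 libraries. Correlations used 100000 permutations within groups (Python 3.11.15, scipy 1.17.1). The limma steps were tested on simulated data.

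The members and lists were chosen with earlier results of these data known. The named genes are every member in each group, CYP1A1 as a check, up to 3 genes of the wider list and up to 2 of other lists per comparison, by smallest p past the threshold, and the 5 genes most like STC2. Alternatives were other pseudocounts, filters, scalings, models, transcript choices, a block by run of library numbers and leaving out libraries. The 9 libraries were found from an alignment summary that names 38 of the 40 libraries. FPKM per assembled locus, and 75th-percentile scaling joined to leaving out those 9 libraries, were alternatives added after seeing the data.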

Additional observations from a re-analysis of the deposited data

Results flagged for a closer look

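Among the 10 genes in 8 groups of 5 libraries, 80 sets in all, 4 held a library whose gap to its nearest neighbour, as a share of the group's range of log2(FPKM + 1), passed Dixon's 95% value. Chance gives about 1 in 20, or 4. STC2 in control replicate 5 was at 0.175 FPKM, against 0.852 to 1.08 in the other 4. STC1 in control replicate 4 was at 7.77 FPKM, against 5.17 to 5.75. ASNS in glyphosate 1 mg/L replicate 5 was at 6.50 FPKM, against 10.7 to 12.2. PSAT1 in glyphosate 10 µg/L replicate 5 was at 9.65 FPKM, against 17.0 to 20.5. The libraries behind 2 of the 4, STC2 and PSAT1, were among those with over 30% of multiply aligned pairs.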

How the results depend on the processing

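The fall of STC1 at 1 µM, against the herbicide groups and over the dose steps kept its direction and its call under every alternative run. The cause of the changes below was not tested. The difference of STC2 at 1 µM was 4.33 with a pseudocount of 0.1, since a smaller pseudocount widens the change of low genes. Members past the threshold at 10 nM (0) became 1 with quantile normalization, with all 40 libraries in 1 fit, with the replicate block by run of library numbers and with locus sums. At 1 µM (1) and for the trend (1) they became 2 with 75th-percentile scaling, quantile normalization, a library-size term, without the libraries over 30% multiply aligned, and with that and scaling together. Against the herbicide groups (2) they became 1 with every gene above 0 and with the most abundant transcript, 3 with 75th-percentile scaling (also without the multiply aligned libraries) and with a library-size term, and 4 with quantile normalization.

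Of the wider list, the counts at 10 nM (0) became 1 with 75th-percentile scaling, 4 with quantile normalization, 3 with a library-size term, 1 with locus sums, 2 without the multiply aligned libraries and 1 with that and scaling. Over all genes 0.205% passed at 10 nM, and 0.796%, 1.89%, 1.17% and 0.665% with the first 4 of these and 0.938% with the last. At 1 µM (1) the counts of the list became 5, 14, 11, 4, 5 and 8 in that order, and 2 with the replicate block. Over all genes 1.87% passed at 1 µM, and 6.68%, 11.1%, 8.51% and 4.73% with the first 4 of these. With the last 8.77% passed and with the block 3.66%, so calls rose over all genes as well. Of the list 43, 48, 48 and 51 genes were tested with those 4, 39 with the last and 48 with the block. In each of these the share of the list that passed was above that of all genes, a difference that was not tested. Against the herbicide groups (3) the counts of the list became 17, 20, 18, 6, 6 and 11 in that order, and 6 with the replicate block. Of the 17, 20 and 18, lower calls made 9, 7 and 4, and 32.3%, 28.1% and 26.1% of all genes passed. For the trend (2) they became 7, 13, 13, 5, 6 and 9 in that order, and 1 with every gene above 0, with the most abundant transcript and with all 40 libraries in 1 fit. Over all genes 3.78% passed for the trend, and 9.12%, 12.7%, 9.05% and 7.73% with the first 4 of that order. Genes correlated with STC2 within groups (1) became 0 with 75th-percentile scaling and without the multiply aligned libraries.

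Leaving out 1 library gave 0 to 1 members at 10 nM (1 without 10 nM replicate 4), 1 to 2 against the herbicide groups and 1 to 2 for the trend (2 without 1 µM replicate 1). It gave 1 to 2 genes of the wider list at 1 µM (2 without control replicate 1 or 5 or 10 nM replicate 3) and 2 to 5 against the herbicide groups (5 without glyphosate 10 µg/L replicate 5, glyphosate 0.1 g/L replicate 2 or Roundup replicate 5). For the trend it gave 1 to 5 (5 without control replicate 5, 1 without control replicate 3 or 4 or 1 µM replicate 1 or 4). Library numbers are no replicate labels: over 140 pairs of libraries of the same run in different groups, the median correlation of deviations was 0.0501, and 40 were over 0.1. Over 560 pairs from different runs the median was -0.0202 and 26 were over 0.1. Libraries of a run were thus more alike, but not in every pair, and the block is not read as pairing. Each run held 1 library of each of the 8 groups. The main tests took no account of the run, and with it as a block 3.66% of all genes passed at 1 µM, against 1.87%. Read depth, for which the paper gives a range over its samples, was not used in the main tests.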
